A study of Glycine max with 12 samples.

Results

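The chalcone synthase family of soybean (Glycine max) was followed here as 8 genes of 56044 gene IDs, read by RNA-seq in all 12 libraries of a study of edited soybean lines. The genes were taken from a fixed list of IDs: Glyma.01G228700 (CHS7), Glyma.11G011500 (CHS8), Glyma.09G075200, Glyma.05G153200, Glyma.08G109400, Glyma.08G109300, Glyma.08G109200 and Glyma.02G130400. By their IDs they lie on chromosomes 1, 11, 9, 5, 8 and 2, and the 3 on chromosome 8 carry consecutive IDs. The names CHS7 and CHS8 came with that list. The other genes are left without a family name, since none of the deposited IDs matched the reference table of soybean genes (0 matches among 59048 genes).

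Chalcone synthase joins a phenylpropanoid starter to malonyl units and makes chalcone, the first compound of the flavonoid pathway. Isoflavones, anthocyanins and proanthocyanidins are all built from it, and in soybean the isoflavones of the seed are its best known products. The enzyme is encoded by many similar genes in soybean. In cultivars with yellow seed coats, small RNAs made from a cluster of chalcone synthase copies on chromosome 8 are known to silence the family in the seed coat.

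The groups were the Gm20/Gm10 double mutant, the Gm20 single mutant and the unedited cultivar Thorne (WT Thorne, called wild type), each with 2 libraries from a stage called R5 and 2 from a stage called V5, which makes 6 groups. The single mutant is edited in the chromosome 20 gene of a major seed protein locus, and the double mutant is edited in its chromosome 10 paralog as well. All plants were grown in the field, the labels give seed of several plants as the material of every library, and they give no agent, no plant age beyond the stage and no number of independent lines. R5 names the start of seed filling and V5 a vegetative stage before flowering, so V5 is used only as a label for material that the labels call seed. The tissue could not be checked by marker genes, because the IDs have no names.

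The R5 libraries held 26966329 to 34626177 counts and the V5 libraries 20410270 to 21066989. The single mutant V5 replicate 2 stood apart: over abundant genes the SD of log2 count ratios was 1.13 to 1.17 between it and the other V5 libraries, and 0.193 to 0.385 among those. At R5 replicate 1 of the double mutant and replicate 2 of the single mutant were the closest pair, with an SD of 0.141 against 0.207 to 0.786 for the other R5 pairs. Each was thus closer to a library of the other genotype than to its own replicate. So were the wild-type R5 replicate 1 and the double mutant R5 replicate 2, at 0.207 from each other. They were 0.330 and 0.575 from their own replicates. The single mutant R5 replicate 1 was 0.349 from the wild-type replicate 1 and 0.577 from its own replicate. Only the wild-type R5 replicate 2 was nearest to its own replicate. Whether a library at either stage carries another one's label was not tested, and all values below follow the labels. Levels are given as CPM, a gene's count scaled to a common total for every library. Differences are log2 fold changes from the quasi-likelihood test of edgeR over all genes, with Benjamini-Hochberg adjusted p under 0.05 taken as a call. That test gives no standard error (SE). The SE shown is the absolute log2 fold change divided by the square root of the test's F value. Nothing in the labels ties the libraries within a group to separate plots, and the p-values therefore measure only how these libraries scatter, which may be technical.

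Of the 8 genes, 7 had at least 1 count and 6 passed the filter on low counts when all 12 libraries were fitted. The family divided by stage. CHS8, Glyma.08G109400 and Glyma.09G075200 had more reads at R5, while CHS7 and Glyma.05G153200 had more at V5, except that the V5 libraries of the single mutant lay on both sides of its R5 libraries for CHS7. How the counting treated reads that match several near-identical copies is unknown, so the level of each gene is uncertain to that extent. In these bulk libraries fewer cells of a type and less RNA per cell cannot be told apart.

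**Figure D1:**
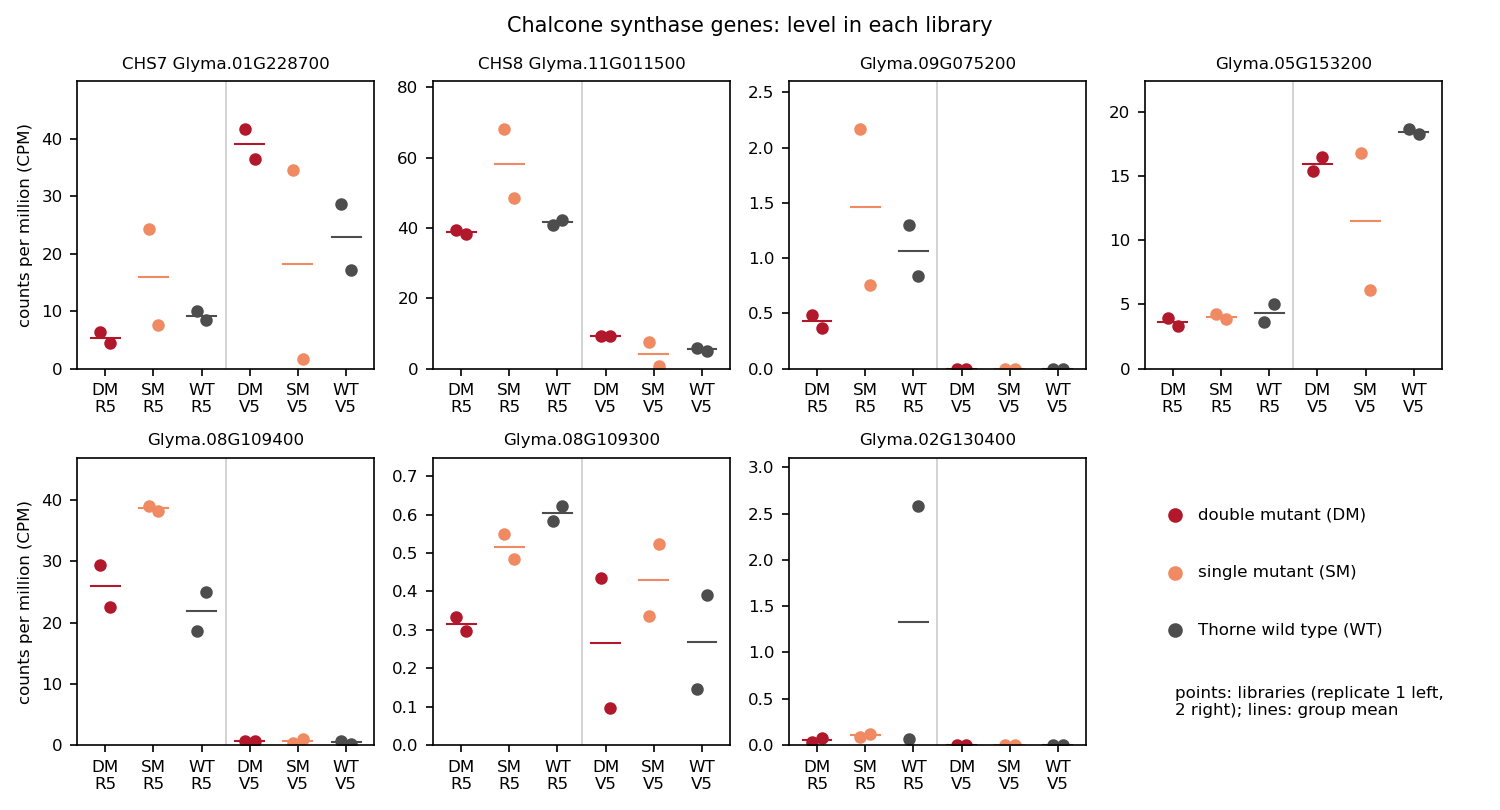
CPM (vertical axes, each panel on its own scale from 0) of the 7 chalcone synthase genes with reads, in the double mutant (DM), single mutant (SM) and wild type (WT) at R5 and V5; points are libraries and lines are group means. CHS8 and Glyma.08G109400 stand higher in every R5 library than in any V5 library, and Glyma.05G153200 stands lower in every R5 library than in any V5 library.

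CHS8 (Glyma.11G011500) is, with CHS7, the family member most often tied to isoflavone formation in soybean seed. At R5 it had 39.4 and 38.3 CPM in double mutant libraries, 68.0 and 48.5 CPM in single mutant libraries and 41.0 and 42.4 CPM in wild-type libraries. At V5 it had 9.12 and 9.29 CPM in double mutant libraries, 7.41 and 0.665 CPM in single mutant libraries and 5.98 and 4.87 CPM in wild-type libraries. Every R5 library was above every V5 library, and the single mutant R5 replicate 1 was the highest of all. The log2 fold change, R5 over V5, was 1.71 (SE 0.82, edgeR adjusted p = 0.133) in the double mutant, 3.35 (SE 0.88, edgeR adjusted p = 0.0165) in the single mutant and 2.14 (SE 0.84, edgeR adjusted p = 0.0731) in wild type. Without the outlying single mutant V5 replicate 2 it was 1.71 (SE 0.14, edgeR adjusted p = 6.68e-05) for the double mutant, 2.42 (SE 0.19, edgeR adjusted p = 9.55e-05) for the single mutant and 2.14 (SE 0.14, edgeR adjusted p = 2.88e-05) for wild type. In that fit the lone V5 library of the single mutant is assumed to vary like the other groups, here and for the genes that follow. CHS8 also became a call in wild type, at 2.14, when V5 replicate 1 of the single mutant was left out instead. So did CHS7, at -2.09. The gain in wild type is thus not particular to leaving out the outlying library. Either fit drops the spread within the single mutant V5 group from the estimate of scatter that all groups share. The call in the single mutant was lost without its R5 replicate 1 (edgeR adjusted p = 0.0525). With all 12 libraries DESeq2 also called it in wild type (2.08, DESeq2 adjusted p = 0.0325).

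Glyma.08G109400, one of the chromosome 8 genes, showed the widest gap between stages among the genes with reads in all libraries. At R5 it had 29.4 and 22.5 CPM in double mutant libraries, 39.0 and 38.2 CPM in single mutant libraries and 18.6 and 25.0 CPM in wild-type libraries. At V5 it had 0.579 and 0.718 CPM in double mutant libraries, 0.337 and 0.949 CPM in single mutant libraries and 0.735 and 0.244 CPM in wild-type libraries, from 5 to 20 counts per library. It was higher at R5 in all 3 genotypes, by a log2 fold change of 4.95 (SE 0.47, edgeR adjusted p = 0.000318) in the double mutant, 5.66 (SE 0.48, edgeR adjusted p = 0.00021) in the single mutant and 4.69 (SE 0.48, edgeR adjusted p = 0.000363) in wild type.

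Glyma.09G075200 was read only at R5, at low level. It had 16 and 10 counts in the double mutant, 75 and 25 in the single mutant and 40 and 27 in wild type at R5, and 0 counts in all 6 V5 libraries. Against a floor of 3 counts per library, its mean CPM was at least 2.96-fold higher at R5 in the double mutant, 10.2-fold in the single mutant and 7.29-fold in wild type. After TMM scaling, edgeR's correction for the make-up of a library, these bounds were 2.31-fold for the double mutant, 7.83-fold for the single mutant and 4.17-fold for wild type. It passed the filter on low counts through its R5 libraries alone, so a difference between stages was built into its being tested, and no p-value is given for it.

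CHS7 (Glyma.01G228700) ran the other way in 2 of the 3 genotypes. At R5 it had 6.29 and 4.45 CPM in double mutant libraries, 24.3 and 7.65 CPM in single mutant libraries and 10.0 and 8.41 CPM in wild-type libraries. At V5 it had 41.6 and 36.5 CPM in double mutant libraries, 34.5 and 1.71 CPM in single mutant libraries and 28.7 and 17.2 CPM in wild-type libraries. The stages did not overlap in the double mutant and wild type, and overlapped in the single mutant because of its V5 replicate 2. The log2 fold change, R5 over V5, was -3.22 (SE 1.15, edgeR adjusted p = 0.0546) in the double mutant, -0.76 (SE 1.06, edgeR adjusted p = 0.588) in the single mutant and -2.10 (SE 1.10, edgeR adjusted p = 0.16) in wild type, none of them a call. With the replicate number as a block the double mutant value was -3.30 and passed (edgeR adjusted p = 0.0406), and DESeq2 on all 12 libraries also called it there (-3.23, DESeq2 adjusted p = 0.00576). Without the single mutant V5 replicate 2 the value was -3.21 (SE 0.46, edgeR adjusted p = 0.00078) for the double mutant, -1.71 (SE 0.50, edgeR adjusted p = 0.0249) for the single mutant and -2.09 (SE 0.44, edgeR adjusted p = 0.00481) for wild type. In the single mutant it was 3.12 when V5 replicate 1 was left out and the outlying library stood for the group (edgeR adjusted p = 0.00433).

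Glyma.05G153200 was also lower at R5. At R5 it had 3.96 and 3.30 CPM in double mutant libraries, 4.22 and 3.84 CPM in single mutant libraries and 3.66 and 5.01 CPM in wild-type libraries. At V5 it had 15.4 and 16.5 CPM in double mutant libraries, 16.8 and 6.12 CPM in single mutant libraries and 18.7 and 18.3 CPM in wild-type libraries. All R5 libraries lay below all V5 libraries, with the outlying library the nearest to them. The log2 fold change, R5 over V5, was -2.50 (SE 0.53, edgeR adjusted p = 0.00731) in the double mutant, -1.94 (SE 0.52, edgeR adjusted p = 0.0178) in the single mutant and -2.90 (SE 0.54, edgeR adjusted p = 0.00411) in wild type. In the double mutant the call ended without R5 replicate 2 (edgeR adjusted p = 0.0542). In the single mutant it ended without R5 replicate 1, R5 replicate 2 or V5 replicate 1 (edgeR adjusted p 0.0885, 0.0868 and 0.0542), and without V5 replicate 1 the value was -0.65.

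The remaining genes had few reads. Glyma.08G109300 had 8 to 20 counts in the R5 libraries and 2 to 11 in the V5 libraries, and its log2 fold change between stages was -0.12 (SE 0.75, edgeR adjusted p = 0.918) in the double mutant, -0.01 (SE 0.70, edgeR adjusted p = 0.989) in the single mutant and 0.33 (SE 0.73, edgeR adjusted p = 0.748) in wild type. Its sign in the 2 mutants turned when libraries were scaled by plain totals (0.25 for the double mutant and 0.26 for the single mutant). Glyma.02G130400 had 83 counts (2.58 CPM) in the wild-type R5 replicate 2, 1 to 4 counts in the other R5 libraries and 0 counts in all 6 V5 libraries. It did not pass the filter with all 12 libraries fitted, but passed it in some fits with fewer libraries. Glyma.08G109200 had 0 counts in all 12 libraries, which allows at most 0.0866 to 0.147 CPM per library for reads counted on it. Whether reads of this gene were lost to its copies was not tested.

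**Figure D2:**
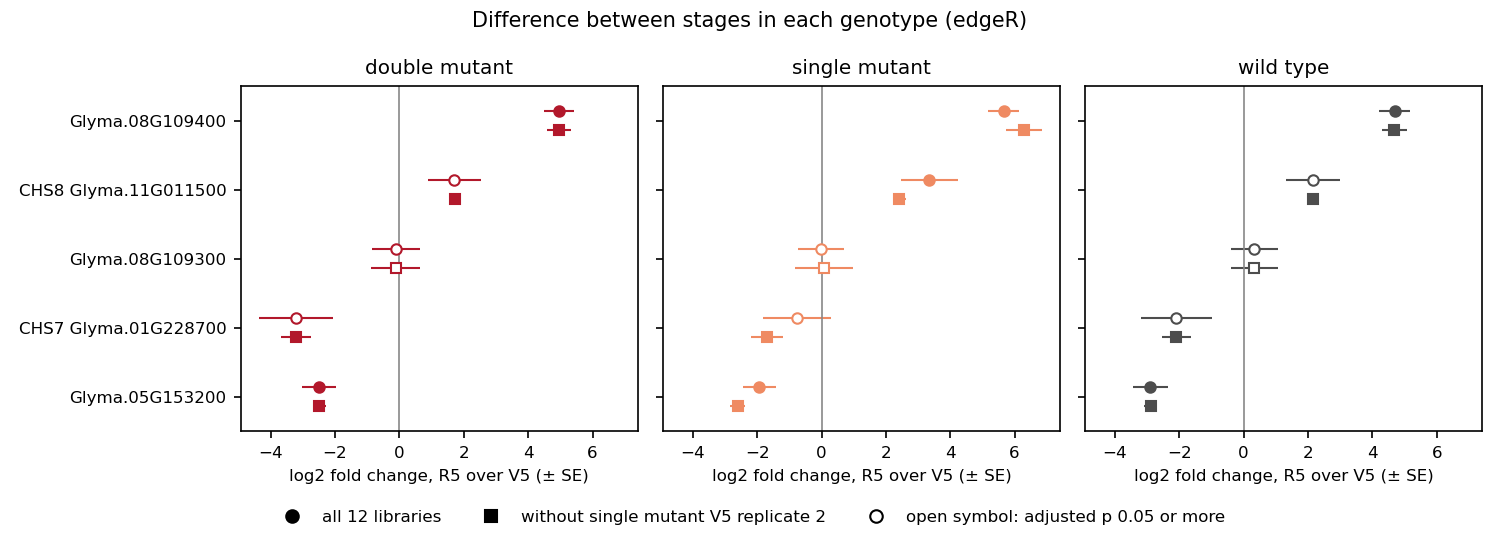
Log2 fold change of R5 over V5 (horizontal axis, with SE bars) for the 5 chalcone synthase genes with reads at both stages, in each genotype; circles use all 12 libraries, squares leave out the single mutant V5 replicate 2, and open symbols have an adjusted p of 0.05 or more. Glyma.08G109400 and CHS8 lie right of 0 and Glyma.05G153200 and CHS7 left of 0 in each genotype, while Glyma.08G109300 lies near 0.

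Among the 5 genes with reads at both stages, the stage test called 2 for the double mutant, 3 for the single mutant and 2 for wild type. Glyma.08G109400 was higher and Glyma.05G153200 lower in each genotype, and CHS8 was the further call in the single mutant. With Glyma.09G075200, tested only through its R5 reads, the counts were 3, 4 and 3 of 6. Over all 38559 genes tested, 37.4% were called in the double mutant (21.1% higher at R5 and 16.3% lower), 41.9% in the single mutant (21.6% and 20.3%) and 37.8% in wild type (20.9% and 16.9%). The shares of the family lie near that background. In CPM, with Glyma.09G075200 counted, the stages did not overlap in 3 genes higher and 2 lower at R5 for the double mutant (54.2% and 26.3% of all genes), 3 and 1 for the single mutant (40.6% and 17.6%) and 4 and 2 for wild type (68.9% and 18.1%), and after TMM scaling the count of higher genes for wild type was 3. Each count of higher genes includes Glyma.09G075200, for which this was fixed by its passing the filter through R5 reads alone. The others were CHS8 and Glyma.08G109400 and, for wild type in CPM only, Glyma.08G109300. The median log2 fold change of the 6 genes was 0.80 for the double mutant, 1.67 for the single mutant and 1.23 for wild type. Over all genes it was 0.11 for the double mutant, -0.03 for the single mutant and 0.14 for wild type. With Glyma.09G075200 at its bound the median of the 6 genes was 0.55 for the double mutant, 1.48 for the single mutant and 1.19 for wild type. Both versions count that gene as higher at R5. Among the 5 genes with reads at both stages the middle value was that of Glyma.08G109300. It was -0.12 for the double mutant, -0.01 for the single mutant and 0.33 for wild type. With no filter Glyma.02G130400 joined the 6 genes as a further gene tested. The median was then 1.73 for the double mutant, 3.37 for the single mutant and 2.17 for wild type, so it rests on which low genes are counted. Without the outlying library 4 of the 5 genes with reads at both stages were called by edgeR in each genotype, 2 higher and 2 lower. Of all genes 54.5% were then called for the double mutant (29.8% higher, 24.6% lower), 44.3% for the single mutant (23.3%, 21%) and 54.9% for wild type (29.8%, 25.1%). DESeq2 without that library also called 4 of the 5 in each, beside 55% of all genes for the double mutant, 45.8% for the single mutant and 55.6% for wild type. With all 12 libraries DESeq2 called 3 of the 5 in each, beside 44.6% for the double mutant, 49.1% for the single mutant and 45.3% for wild type. Without both libraries of the close R5 pair edgeR called 1 of the 5 for the double mutant (19.1% of all genes), 1 for the single mutant (19.3%) and 2 for wild type (31.6%). The mean scaling factors of the stages differ so that plain library totals, in place of TMM, raise log2 fold changes by 0.37 for the double mutant, 0.31 for the single mutant and 0.81 for wild type on average, while single genes move by more or less. The calls over all genes then divided into 10252 higher and 3826 lower for the double mutant (8155 and 6266 with TMM), 10043 and 4566 for the single mutant (8346 and 7822) and 15545 and 3097 for wild type (8040 and 6518). The V5 libraries are also the shallower ones, and the count tables of the stages name their columns in different series, so stage, depth and any such set cannot be told apart.

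The summed level was also read. The family as a whole reached 74.6 ± 7.48 CPM in the double mutant, 119 ± 27.5 CPM in the single mutant and 80.1 ± 6.79 CPM in wild type at R5. At V5 it reached 65.1 ± 2.95 CPM in the double mutant, 34.7 ± 35.0 CPM in the single mutant and 47.6 ± 9.41 CPM in wild type (SD, n = 2 each). After TMM scaling the R5 and V5 sums were 65.9 ± 10.5 and 74.1 ± 4.03 CPM for the double mutant, 99.7 ± 11.5 and 41.0 ± 45.5 CPM for the single mutant, and 64.2 ± 4.55 and 66.3 ± 6.34 CPM for wild type, so the direction of the summed level turned with the scaling in the double mutant and wild type.

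Shares of the family's reads need no scaling between libraries. CHS8 took 48.7% to 55.3% of them at R5 and 6.67% to 14.7% at V5, and Glyma.08G109400 took 24.8% to 38.4% at R5 and 0.566% to 9.52% at V5. CHS7 took 6.42% to 17.6% at R5 and 17.1% to 62.0% at V5, and Glyma.05G153200 took 3.05% to 5.91% at R5 and 23.0% to 61.4% at V5. The single mutant V5 replicate 2 held the lowest V5 shares of CHS7 and CHS8 and the highest V5 shares of Glyma.08G109400 and Glyma.05G153200.

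The order of the group means can be given for the main pair. CHS8 averaged 38.9 ± 0.784 CPM in the double mutant, 58.3 ± 13.8 CPM in the single mutant and 41.7 ± 1.0 CPM in wild type at R5, with the single mutant highest (SD, n = 2 each). The double mutant was lowest in CPM, but after TMM scaling it averaged 34.3 CPM and wild type 33.5 CPM, so that order turned. Its V5 means were all lower, at 9.21 ± 0.123 CPM for the double mutant, 4.04 ± 4.77 CPM for the single mutant and 5.43 ± 0.781 CPM for wild type. CHS7 averaged 5.37 ± 1.30 CPM for the double mutant, 15.97 ± 11.8 CPM for the single mutant and 9.23 ± 1.16 CPM for wild type at R5. At V5 it averaged 39.0 ± 3.67 CPM for the double mutant, 18.1 ± 23.2 CPM for the single mutant and 22.9 ± 8.17 CPM for wild type, so the double mutant had the lowest mean at R5 and the highest at V5. The V5 means of the single mutant and wild type differed by less than the SD of the single mutant in both genes, and so did the CHS7 means of these genotypes at R5.

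Set against each other alone, CHS7 and CHS8 exchanged places. Of the reads on this pair, CHS7 took 13.8% and 10.4% in the double mutant, 26.3% and 13.6% in the single mutant and 19.7% and 16.6% in wild type at R5. At V5 it took 82.0% and 79.7% in the double mutant, 82.3% and 72.0% in the single mutant and 82.8% and 77.9% in wild type. The V5 value of 72.0% rests on 50 reads and has a 95% Wilson interval of 58.3% to 82.5%, which covers counting error only. The highest R5 value, 26.3%, has an interval of 24.8% to 27.9%. The outlying library thus kept a CHS7 share within counting error of the lowest of the other V5 shares, with far fewer reads of both genes.

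**Figure D3:**
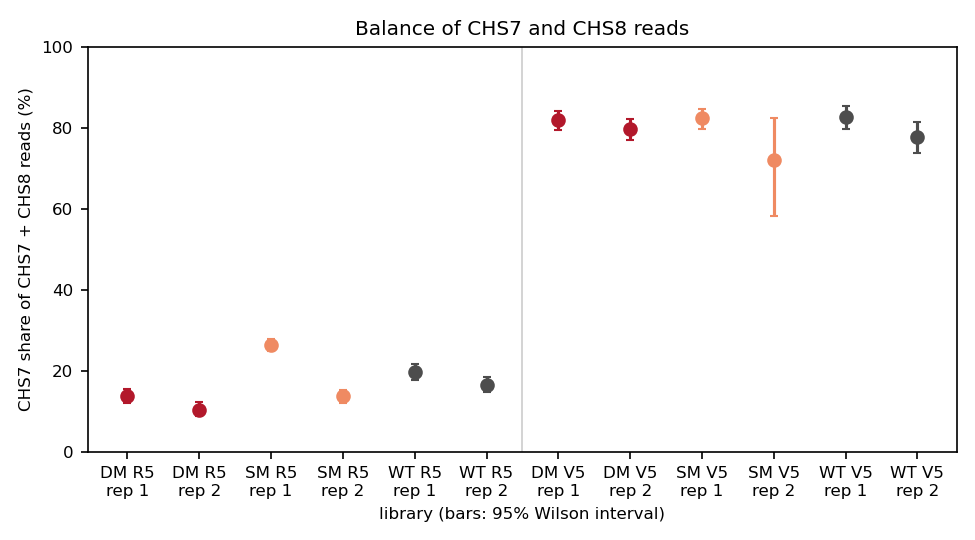
Reads of CHS7 as a percentage of the reads of CHS7 and CHS8 together (vertical axis) in each library of the double mutant (DM), single mutant (SM) and wild type (WT), with 95% Wilson intervals. The R5 libraries lie between 10.4% and 26.3%, and the V5 libraries between 72.0% and 82.8%.

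The outlying library was low in 3 of the genes and not in the others. The single mutant V5 replicate 2 had 36 reads of CHS7, 14 of CHS8 and 129 of Glyma.05G153200, where replicate 1 had 718 of CHS7, 154 of CHS8 and 350 of Glyma.05G153200. For these 3 genes it was the lowest of the 6 V5 libraries. For Glyma.08G109400 and Glyma.08G109300 it had 20 and 11 reads, against 7 and 7 in replicate 1, and it was the highest V5 library in CPM, though not after TMM scaling.

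Whether editing changed the family was read within each stage, with the same wild-type libraries set against both mutants. At R5 none of the 6 genes tested was called by edgeR when the double mutant was set against wild type, the single mutant against wild type or the double against the single mutant (0% of all 37058 genes in each). At an unadjusted p under 0.05 there were 0 members and 1089 genes in all for the double mutant over wild type, 2 and 2035 for the single mutant over wild type and 3 and 99 for the double over the single mutant. DESeq2 called 58 genes, 73 genes and 0 genes in these comparisons, with 0 members among them. For the double mutant over wild type, Glyma.09G075200 had a log2 fold change of -1.19 (SE 0.61) and Glyma.08G109300 one of -0.81 (SE 0.47), both with an edgeR adjusted p of 0.779. For the single mutant over wild type, Glyma.08G109400 had 0.89 (SE 0.25) and CHS8 (Glyma.11G011500) 0.53 (SE 0.17), both with an edgeR adjusted p of 0.585, and in both genes the single mutant libraries lay above the wild-type ones.

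Between the mutants at R5 the log2 fold change, double over single, was -0.52 (SE 0.17) for CHS8 (Glyma.11G011500) and -1.45 (SE 0.51) for CHS7 (Glyma.01G228700), both with an edgeR adjusted p of 1. The double mutant lay below the single mutant without overlap in 5 of the 6 genes tested, where 10.8% of all genes did so, and above it in 0 (4.19%). Against wild type the double mutant lay below without overlap in 4 of 6 genes (29.5% of all genes) and above in 0 (14%), and after TMM scaling in 3, as CHS8 then overlapped, with a log2 fold change of 0.01 (SE 0.17). The single mutant lay above wild type in 2 of 6 (19.3%) and below in 1 (25.8%). The single mutant R5 replicate 1 was the highest R5 library for CHS7, CHS8 and Glyma.09G075200, in CPM and after TMM scaling. Without that library the log2 fold change, double over single mutant, was -0.56 for CHS7 and -0.37 for CHS8. Without the double mutant R5 replicate 2 it was -1.18 for CHS7 and -0.44 for CHS8. The gap was wider without the double mutant R5 replicate 1 (-1.80 for CHS7 and -0.60 for CHS8). It was also wider without the single mutant R5 replicate 2 (-1.997 and -0.64). The size of the gap thus rests on single libraries, though its sign held in these fits. The median log2 fold change of the 6 genes was -0.40 for the double mutant and 0.50 for the single mutant, each over wild type, and -0.58 between the mutants, beside medians between -0.02 and 0.00 for all genes. When libraries were left out, Glyma.02G130400 joined as a further gene tested. Over these 7 genes the single mutant's median was -0.10 without its replicate 1, and the double mutant's was -0.97 without the close R5 pair. The latter is the value of Glyma.08G109300, which had 8 counts in the double mutant library that remained. Glyma.02G130400 had 83 counts in the wild-type R5 replicate 2 and 2 in replicate 1. With all R5 libraries and no filter, the medians of the same 7 genes were 0.46 for the single mutant and -0.66 for the double mutant.

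At V5, 4 genes passed the filter, CHS7, CHS8, Glyma.05G153200 and Glyma.08G109400. None was called by edgeR when the double mutant or the single mutant was set against wild type, or the mutants against each other (0% of all 33599 genes in each). At an unadjusted p under 0.05 there were 0 members in each, and 517 genes in all for the double mutant over wild type, 2022 for the single mutant over wild type and 1351 for the double over the single mutant. DESeq2 called 11 genes, 167 genes and 113 genes in these comparisons, with 0 members among them. In the double mutant CHS7 and CHS8 lay above wild type and Glyma.05G153200 below it without overlap, that is 2 of 4 genes above (60.1% of all genes) and 1 below (5.93%). The single mutant lay below wild type in 1 gene, Glyma.05G153200 (7.44% of all genes), and above it in 0 (36.5%). The double mutant lay above the single mutant in CHS7 and CHS8 (21.5% of all genes) and below it in 0 (13.3%), and after TMM scaling only CHS8 was without overlap. The median log2 fold change of the 4 genes was 0.29 for the double mutant and -0.60 for the single mutant, each over wild type, and 0.74 between the mutants, beside medians between -0.01 and 0.03 for all genes. Without the outlying library it was 0.29 for the double mutant, -0.03 for the single mutant and 0.13 between the mutants. The mean scaling factors differ so that plain totals raise log2 fold changes over wild type by 0.30 for the double mutant and 0.42 for the single mutant on average. Single genes moved otherwise, and with plain totals CHS8 was at -0.43 for the single mutant over wild type, and at 1.19 for the double over the single mutant.

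The log2 fold change of Glyma.05G153200 against wild type at V5 was -0.53 (SE 0.61, edgeR adjusted p = 1) in the double mutant and -1.0 (SE 0.62, edgeR adjusted p = 0.649) in the single mutant. For CHS8 (Glyma.11G011500) the same value was 0.45 (SE 1.08, edgeR adjusted p = 1) in the double mutant and -0.66 (SE 1.09, edgeR adjusted p = 0.807) in the single mutant. Without the outlying library Glyma.05G153200 was at -0.52 (SE 0.12, edgeR adjusted p = 0.12) for the double mutant and -0.33 (SE 0.15, edgeR adjusted p = 0.325) for the single mutant. CHS8 was then at 0.46 (SE 0.14, edgeR adjusted p = 0.188) for the double mutant and 0.26 (SE 0.17, edgeR adjusted p = 0.497) for the single mutant, where it turned in sign. Between the mutants, double over single, CHS8 had 1.12 (SE 1.09, edgeR adjusted p = 0.701) and CHS7 (Glyma.01G228700) 1.01 (SE 1.30, edgeR adjusted p = 0.744), and without the outlying library CHS8 had 0.20 (SE 0.17) and CHS7 0.06 (SE 0.22). When the outlying library alone stood for the single mutant, 3 members (CHS7, CHS8 and Glyma.05G153200) were called against wild type (21539 genes in all) and between the mutants (22195 genes in all).

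How far each mutant lay from wild type was also compared between stages, as R5 minus V5. None of the 6 genes tested was called for the double or for the single mutant (0% of all 38559 genes in each). At an unadjusted p under 0.05 there were 0 members in each, with 982 genes in all for the double mutant and 2645 for the single mutant. DESeq2 called 16 genes for the double mutant and 134 for the single mutant, with 0 members among them. For the double mutant the difference was -1.12 (SE 1.5) for CHS7 (Glyma.01G228700) and 0.40 (SE 0.71) for Glyma.05G153200, both with an edgeR adjusted p of 1, and the second turned to -0.0445 with plain library totals. For the single mutant it was 0.97 (SE 0.63, edgeR adjusted p = 0.723) for Glyma.08G109400 and 0.96 (SE 0.71, edgeR adjusted p = 0.744) for Glyma.05G153200. With the outlying library alone for the single mutant at V5, 3 members were called for it, along with 9714 genes in all.

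The genes whose pattern was most like CHS7 or CHS8 were sought among 33113 other genes with a mean of 1 CPM or more, by the root mean square difference of log2(CPM + 0.5) profiles over the 12 libraries, each centred on its own mean. Nearest to CHS7 were Glyma.12G226400, at a difference of 0.365, and Glyma.17G037000, at 0.444. Their V5 libraries spanned 0.949 to 41.7 CPM and 0.0475 to 8.91 CPM. Those of CHS7 spanned 1.71 to 41.6 CPM, with the outlying library lowest. How far the likeness rests on that library was not tested. Nearest to CHS8 were Glyma.15G234300, at 0.253, and Glyma.19G192500, at 0.277. Within the family, Glyma.05G153200 ranked 674 in likeness to CHS7 and Glyma.08G109400 ranked 7533 in likeness to CHS8. CHS8 itself ranked 27612 in likeness to CHS7, with a difference of 2.12. Other genes of the flavonoid pathway are not described, because the IDs could not be tied to product names.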

How the data were processed

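The authors deposited 1 table of whole-number read counts per library for 56044 gene IDs. Bowtie, HISAT2 and HTSeq appear in the submitters' processing notes. The sources used here give no role or version for them, and no build, gene models, strandedness or rule for reads that match several genes, so similar soybean copies can share or lose reads. The counts were tested with edgeR 4.0.16 in R 4.3.3 (quasi-likelihood, TMM, filterByExpr with minimum count 10 and minimum total count 15), on the 6 libraries of a stage for genotypes (3 residual degrees of freedom) and on all 12 for stages (6). P-values were adjusted over all genes tested. The code was tested on simulated counts. The alternatives were RLE factors, DESeq2 1.42.0, no filter, the replicate number as a block, all 12 libraries in 1 fit, each library left out and TMM-scaled CPM. Added after the data were seen were plain library totals, fits without the close R5 pair, DESeq2 without the single mutant V5 replicate 2 and crossed pairings. The members, lists and tests were chosen with earlier results of these data known. All members are named. Fold changes are given for each member with reads at both stages between stages and elsewhere for the 2 with the smallest unadjusted p, plus CHS8 where its groups changed sides. Floors (3 counts) and 95% Wilson intervals cover counting error only. No sequences or product names could be tied to the IDs, since the reference table is of assembly version 4.0 and shares no ID with the files.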

Additional observations from a re-analysis of the deposited data

Results flagged for a closer look

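In the double mutant, CHS7 (Glyma.01G228700) and CHS8 (Glyma.11G011500) lay on opposite sides of wild type at the 2 stages in CPM. Both double mutant libraries were below both wild-type libraries at R5 and above them at V5. Of all genes tested at R5, 29.5% lay below wild type in this way, and of those tested at V5, 60.1% lay above it. The share of genes that did both was not counted. The gap to wild type differed between the stages (R5 minus V5, log2) by -1.12 (SE 1.5) for CHS7 and -0.43 (SE 1.14) for CHS8, both with an edgeR adjusted p of 1, so the difference between stages did not pass the test. Without the single mutant V5 replicate 2 it was -1.12 (SE 0.61, edgeR adjusted p = 0.767) for CHS7 and -0.43 (SE 0.20, edgeR adjusted p = 0.759) for CHS8. After TMM scaling CHS7 kept both sides. CHS8 did not: it overlapped wild type at R5, and its log2 fold change over wild type was 0.01 (SE 0.17) at R5 and 0.45 (SE 1.08) at V5, the same side at both stages.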

How the results depend on the processing

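The numbers of members called against wild type, between the mutants and for the changes between stages stayed at 0 with RLE factors, DESeq2, no filter, the replicate block and, within a stage, all 12 libraries in 1 fit. Leaving out 1 library gave 0 to 3 for the single mutant against wild type and for the mutants against each other at V5 and for the single mutant's change between stages, with 3 only without the single mutant V5 replicate 1, and 0 in the others. Between stages, with Glyma.09G075200 counted, it gave 1 to 5 in the double mutant (1 without R5 replicate 2), 2 to 5 in the single mutant (2 without R5 replicate 1) and 2 to 5 in wild type. Without the close R5 pair 1 was called for the double mutant and 2 for the single mutant, and DESeq2 without the single mutant V5 replicate 2 called 5 in the double mutant and 6 in wild type, of 7 tested, along with 55% and 55.6% of all genes. All genes called between stages numbered 14421 for the double mutant (6611 to 21646 with 1 library left out), 16168 for the single mutant (8692 to 23469) and 14558 for wild type (7017 to 21812). Without the close R5 pair they numbered 7523 for the double mutant and 7578 for the single mutant. DESeq2 without the outlying library called 588 genes for the double mutant and 440 for the single mutant over wild type at V5 and 43 between the mutants, where edgeR called 0.

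The replicate block raised the members called between stages to 4 in the double mutant, through CHS7, and changed no other member count. The numbers were not shown to pair the libraries: the correlation of same-numbered deviations was -0.73 between the mutants, -0.39 between the single mutant and wild type and 0.43 between the double mutant and wild type at R5, and -0.048 to 0.099 at V5, and crossed pairings, chosen after the data were seen, called 0 genes in each.

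Reversals were few outside Glyma.08G109300. Between stages that gene ranged over -0.82 to 1.33 in the double mutant, -0.0596 to 0.0737 in the single mutant and -0.28 to 1.32 in wild type with 1 library left out. It was 0.25 in the double mutant with plain totals, and 0.26 with plain totals, 0.0196 with no filter and 0.0583 with DESeq2 without the outlying library in the single mutant. CHS7 (Glyma.01G228700) between stages in the single mutant ranged over -1.71 to 3.12. CHS8 (Glyma.11G011500) in the single mutant at V5 ranged over -3.72 to 0.26, and was 0.26 in DESeq2 without the outlying library. Glyma.05G153200 turned to -0.0445 with plain totals for the double mutant's change between stages. The cause of these changes was not tested.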
